A study of Mus musculus with 4 samples.

Results

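Pseudogenes, which are gene copies annotated as not coding for a working protein, carried 778 of the 20727 distinct N6-methyladenosine (m6A) peaks listed for mouse natural killer (NK) cells, or 3.75%. Each distinct peak of the deposited list was taken whose assigned gene has a gene type containing the word pseudogene in the GENCODE annotation of GRCm38. These peaks fell on 720 pseudogenes, out of 12351 genes with a peak. By annotated type, 631 peaks on 595 genes belonged to the processed class and 119 peaks on 101 genes to the unprocessed class, each with its transcribed forms. The other 28 peaks lay on 24 genes that are polymorphic (a functional allele exists in some strains), unitary (the only copy in the genome has lost function) or of no stated class. The type was not chosen from any measured value.

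A processed pseudogene arises when a messenger RNA is copied back into DNA and inserted elsewhere in the genome, so it lacks introns and usually a promoter of its own. An unprocessed pseudogene arises by duplication of a stretch of genome and keeps the exon and intron structure of its source. m6A is deposited on messenger RNA mainly by the METTL3 and METTL14 complex at sites of the form DRACH, in which the third base is the methylated A, H stands for any base but G, D for any but C, and R for a purine. Because a young pseudogene closely resembles its source gene, a short read from either RNA can match both places in the genome.

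The cells were splenic NK cells of wild-type C57BL/6 mice, and the assay was m6A RNA immunoprecipitation with sequencing (MeRIP-seq). Poly(A) RNA was cut into fragments, and 2 libraries of fragments pulled down with an m6A antibody were set beside 2 libraries of input RNA. The donor mice had carried the IL-15 expression plasmid pLIVE-IL-15 for 1 to 2 months to expand their NK cells, in immunoprecipitate and input alike, so they were not resting cells of untreated mice. The labels do not say how many mice a library held. The list gives 1 fold enrichment (immunoprecipitate over input) and 1 log10 p of peak calling for each peak and no value per library, so no value below carries a replicate error, no depth is known, the cell type could not be checked against its markers, and no test was run. Each range in parentheses after a share is its 95% Wilson interval, which reflects counting error and nothing else.

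To show what a pseudogene peak and its coding counterpart look like in sequence, 25-nt windows around DRACH sites are printed for pseudogene peaks of low log10 p that align into a peak of the closest protein-coding gene. The capitals mark the DRACH site of the coding gene and the same 5 positions of the pseudogene, and all windows are read 5′ to 3′ on the strand of the gene in GRCm38. The first 3 pairs keep a DRACH site. Gm19085 (chr1:91489480-91489504, minus strand) and Noc3l, a nucleolar ribosome assembly factor (chr19:38810404-38810428, minus strand), were identical over the window. Gm12477 (chr4:54670157-54670181, minus strand) and Rpl18, a protein of the large ribosomal subunit (chr7:45719266-45719290, plus strand), differed by G11A, G16A, T23C and G25A and still both held a DRACH site. Gm12098 (chr11:30568806-30568830, minus strand) and Rbm8a, a core protein of the exon junction complex (chr3:96630303-96630327, plus strand), were again identical. In each substitution the base of the coding gene comes first, then the position counted from 1 at the 5′ end of the window, then the base of the pseudogene.
Gm19085: tgatggagcaGGACCctgatgtggc
Noc3l: tgatggagcaGGACCctgatgtggc
Gm12477: gccacaacaaAGACCaaaaggtcca
Rpl18: gccacaacaaGGACCgaaaggttcg
Gm12098: aagcatccacAAACTaaaagaaaaa
Rbm8a: aagcatccacAAACTaaaagaaaaa

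In the next 3 pairs the site of the coding gene is lost from the pseudogene, and the window lies inside the pseudogene peak. These peaks are wide, covering 100% of Gm12477, 100% of Rpl28-ps2 and 76% of Rps6-ps3. They hold 14, 14 and 9 DRACH sites elsewhere, in that order. A second window of Gm12477 (chr4:54670121-54670145) and Rpl18 (chr7:45719302-45719326) differed by A13G, T22C, G23A and C24A, and A13G replaces the adenosine that the mark would sit on. Rpl28-ps2 (chr3:83687133-83687157, plus strand) and Rpl28, another protein of the large ribosomal subunit (chr7:4794128-4794152, plus strand), differed by A13G alone. Rps6-ps3 (chr9:53689895-53689919, minus strand) and Rps6, a protein of the small ribosomal subunit (chr4:86855974-86855998, minus strand), differed by C14T alone. These windows show letters only, and which adenosine in a peak carried m6A was not measured.
Gm12477: ccaagagccaGGGCAtctacccaag
Rpl18: ccaagagccaGGACAtctacctgcg
Rpl28-ps2: cagcagcatcAGGCAcatgatccga
Rpl28: cagcagcatcAGACAcatgatccga
Rps6-ps3: ctggactgacAGATActactgtgcc
Rps6: ctggactgacAGACActactgtgcc

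Few annotated pseudogenes had a peak. Of 13523 annotated pseudogenes 720 did (5.32%, 95% interval 4.96 to 5.72), against 10174 of 21951 protein-coding genes (46.3%). Within the processed class, a peak was listed for 566 of 9940 processed pseudogenes (5.69%, 5.26 to 6.17) and for 29 of 296 transcribed processed ones (9.80%, 6.91 to 13.7). The unprocessed class was split more widely by its transcribed form, with 58 of 2642 unprocessed pseudogenes (2.20%, 1.70 to 2.83) and 43 of 253 transcribed unprocessed ones (17.0%, 12.9 to 22.1). Polymorphic pseudogenes had a peak in 11 of 82 cases (13.4%, 7.66 to 22.4). None of the 208 immunoglobulin and T cell receptor pseudogenes had one, and a count of 0, taken to allow up to 3 genes, permits a share of up to 1.44% (the Wilson limit is 1.81%). These groups also differed in median exonic length. It was 526 nt for processed and 1321.5 nt for transcribed processed pseudogenes, and 693 and 1806 nt for the unprocessed forms. For all pseudogenes it was 577 nt, against 3498 nt for protein-coding genes. The list gives no expression level, and the parts of gene length and RNA abundance in these shares were not tested.

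**Figure D1:**
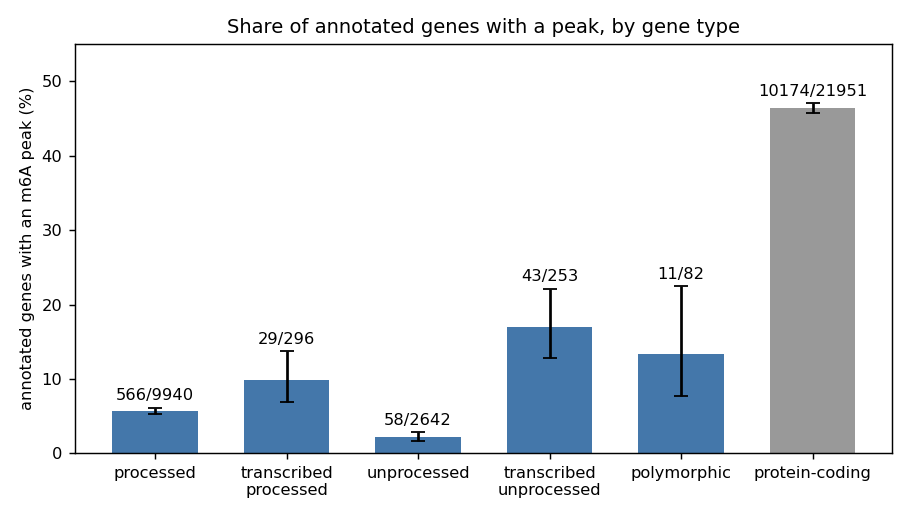
Share of annotated genes of each type with at least 1 peak, in percent; bars give the share, error bars its 95% Wilson interval, and the fractions above them the genes with a peak over the genes annotated. Transcribed unprocessed pseudogenes reached 17.0% and plain unprocessed ones 2.20%, while protein-coding genes reached 46.3%.

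The fold enrichments listed for pseudogenes were high. The median was 13.3, with an interquartile range of 5.69 to 37.9 and extremes of 1.06 and 738. The median of all distinct peaks was 2.66 and that of the peaks on protein-coding genes 2.37. Of the 778 pseudogene peaks, 613 passed a fold of 5 or more (78.8%, 75.8 to 81.5), against 34.6% of all peaks in the list. The study used this limit to pick genes for its pathway enrichment analysis. Under a fold of 2 lay 44 pseudogene peaks (5.66%), against 36.1% of all peaks.

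The p-values went the other way. A log10 p under -3 was listed for 420 pseudogene peaks (54.0%, 50.5 to 57.5), against 61.5% of all peaks, and the median log10 p was -3.33 for pseudogenes and -4.10 overall. A single pair of values, a fold of 9.48 with a log10 p of -1.69, was shared by 99 pseudogene peaks (12.7%) and by 4.08% of all peaks. The 5 commonest pairs together made up 29.8% of pseudogene peaks and 10.4% of all peaks. Each of these 5 pairs joined a fold of 9.48 to 17.1 to a log10 p of -1.69 to -3.33. Since only called peaks are listed, the folds describe peaks that passed the caller, and the part of that selection was not tested.

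The difference in fold between processed and unprocessed pseudogenes was small beside the spread within each class. The median fold was 13.3 for the processed class (interquartile range 7.59 to 37.9) and 11.4 for the unprocessed class (5.32 to 37.9), a difference of 0.22 in log2 whose approximate 95% interval, combined from the intervals of both medians, ran from -0.092 to 0.49. That difference turned to -0.074 when only peaks with a log10 p under -3 were kept. At least 5-fold enrichment was listed for 506 processed (80.2%, 76.9 to 83.1) and 91 unprocessed peaks (76.5%, 68.1 to 83.2). The transcribed forms had lower medians, at 5.69 for 41 transcribed processed peaks and 9.48 for 54 transcribed unprocessed peaks, where the plain forms both had 13.3. The remaining types had a median of 7.71 over 28 peaks.

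**Figure D2:**
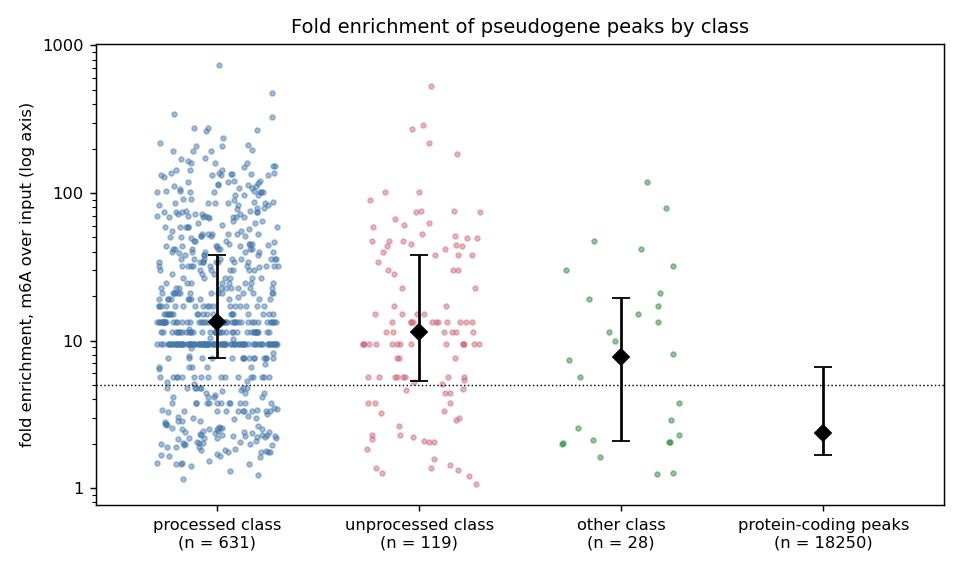
Fold enrichment of every pseudogene peak (points, log axis) by class, with the median (diamond) and interquartile range (bars), beside the median and range of peaks on protein-coding genes; the dotted line is a fold of 5. The processed and unprocessed classes have medians of 13.3 and 11.4, the protein-coding peaks 2.37, and rows of points at the same height are repeated values such as 9.48.

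Pseudogene peaks were often as long as the gene. Of the 778 peaks, 479 (61.6%, 58.1 to 64.9) took in 90% or more of the exons of the pseudogene, against 9.82% of all peaks, and in 426 (54.8%) both ends of the peak were the annotated ends of the gene. Pseudogenes were short, since the genes under these peaks had a median exonic length of 719.5 nt, against 4813 nt for the genes under protein-coding peaks. Coverage was complete in this sense for 415 processed (65.8%) and 56 unprocessed peaks (47.1%). It also went with the fold, since peaks that covered at least 90% of the gene had a fold of at least 5 in 461 of 479 cases and the narrower ones in 152 of 299 cases, with medians of 20.9 and 5.22. Where both ends of a peak are those of the gene model, the peak does not place the mark within the gene.

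Nearly all positions in the deposited list were given as exonic. Of the 778 peaks, 736 were labelled exon (94.6%), 24 3′ untranslated region and 18 5′ untranslated region, whereas over all peaks 28.2% were labelled exon. For 36 of the 736 the exon label named another gene (4.89%), against 10.3% of all peaks labelled exon. An exon of another gene on the same strand was overlapped by 12 peaks (1.54%, 0.884 to 2.68), against 3.12% of all peaks. Examples are Gm49230 (fold 47.4), which lies in an exon of Ctsl, a lysosomal protease, and Gm43580 (fold 13.3) in an exon of Inpp5f, a phosphoinositide phosphatase. An exon on the opposite strand was overlapped by 36 peaks (4.63%, against 9.93% of all peaks), 35 of which overlapped none on the same strand. Inside an intron of another gene lay 74 peaks on the same strand (9.51%) and 122 on the opposite strand only (15.7%). Whether the sequencing kept strand is not given in the sources used here, so reads of a host gene and of the pseudogene cannot be told apart at these places.

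The 10 highest folds fell on pseudogenes with varied closest coding genes. Gm3953 (ENSMUSG00000111326, chromosome 9, 44663928 to 44664716) had the highest at 738 with a log10 p of -205, and its closest coding gene was Nsa2, which acts in assembly of the large ribosomal subunit. Olfr471 (chromosome 7, 107861064 to 107861999), an unprocessed olfactory receptor pseudogene, followed at 529 with a log10 p of -161. Gm21569 had 478 and was closest to Gle1, an mRNA export factor, and Gm12041 had 345 with no coding transcript that met the criteria below. Rpl28-ps2 reached 326, Cyp4a30-ps, a cytochrome P450 pseudogene, 287, and Gm9722, a second Nsa2 copy, 277. Gm47678, whose aligned part is centred in the 3′ untranslated region of the vomeronasal receptor gene Vmn1r55, had 275. Gm14324 had 270 and Gm19085 had 267. All 10 peaks covered 100% of the exonic length of the pseudogene.

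The lowest log10 p values belonged partly to the same peaks. Cyp4a30-ps had -283, Gm19085 -277 and Gm14324 -275. Gm7389, closest to the tRNA exportin gene Xpot, followed at -264 with a fold of 119, and Gm13423, closest to the nucleolar protein gene Npm1, at -225 with a fold of 133. At the other end, chosen after the values were seen, stood Klra13-ps at a fold of 1.06 with a log10 p of -2.15.

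Most pseudogenes had 1 peak. This was so for 673 of 720 (93.5%), while 39 had 2, 5 had 3 and 3 had 4. Gm8995, closest to the interferon-induced GTPase gene Gvin1, had peaks of fold 47.1, 1.43, 1.27 and 1.21, each covering under 5% of its exons. 5830417I10Rik had 5.69, 5.42, 3.32 and 3.25, and 2 of its 4 peaks touched no exon.

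A closest protein-coding transcript was found by sequence for 609 of the 720 pseudogenes (84.6%, 81.8 to 87.0), by a blastn match of at least 80% identity over at least 50% of the pseudogene. Where the symbol itself names a parent, as in Rps6-ps3, the match gave the same gene in 62 of 68 cases. Of the coding genes found in this way, 485 of 609, counted once for each pseudogene, had a peak of their own (79.6%, 76.3 to 82.6). Of 103 pseudogenes with a symbol of this kind, 70 had a parent symbol that is annotated, and for 59 of these the parent had a peak (84.3%, 74.0 to 91.0). For comparison, 46.3% of all protein-coding genes had a peak, although these parents are not a random draw, as they include many ribosomal protein genes.

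Fold enrichment was lowest on the pseudogenes that most resembled their coding gene. The groups of identity used here were set after the values were seen. Among 133 peaks on pseudogenes of 80 to 90% identity the median fold was 22.8, and 126 of them (94.7%, 89.5 to 97.4) had a fold of at least 5. At 90 to 95% the median was 19.95 over 162 peaks, and at 95 to 98% it was 13.3 over 138 peaks. It then fell to 7.59 over 95 peaks at 98 to 99%, and above 99% it was 4.55 over 120 peaks, of which 56 (46.7%, 38.0 to 55.6) had a fold of at least 5. The 130 peaks with no coding match had a median of 13.3. Across the 648 matched peaks Spearman's rank correlation between identity and fold was -0.45, a description only, since copies of the same gene and peaks of the same pseudogene share sequence.

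**Figure D3:**
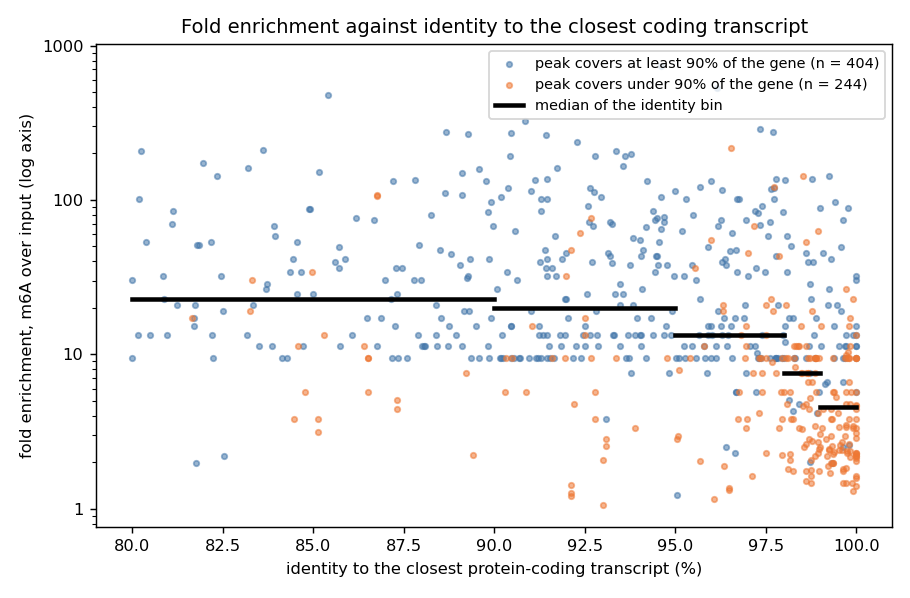
Fold enrichment (log axis) against identity of the pseudogene to its closest protein-coding transcript, in percent, for 648 peaks; colour shows whether the peak covers at least 90% of the gene, and black lines are medians of the 5 identity groups. The medians step down from 22.8 at the lowest identities to 4.55 above 99%, where narrow peaks prevail.

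The extent of the peak moved with identity too. The median share of the gene inside the peak was 100% in each of the 3 groups up to 98% identity, 47.8% at 98 to 99% and 33.5% above 99%. Spearman's correlation between fold and this share was 0.63, and between identity and this share -0.45. The order of fold by identity was nevertheless present at either extent. Among peaks that covered at least 90% of the gene the medians ran 30.3, 28.4, 17.1, 14.25 and 13.3 from the lowest to the highest identity, and among narrower peaks 9.48, 9.48, 8.94, 5.69 and 3.32. Among peaks with a log10 p under -3 there was no decline up to 98% identity, with medians of 41.7, 47.25, 41.7, 17.1 and 3.79. Within the processed class the medians ran 30.3, 22.8, 13.3, 7.59 and 4.43. The unprocessed class did not follow this order, with 13.3, 13.3, 37.9, 42.65 and 4.66 over groups of 23, 29, 13, 4 and 15 peaks. An exact match of at least 100 nt to a coding transcript, about the length of the RNA fragments, was present in 251 pseudogene peaks (32.3%), whose median fold was 9.48 against 13.3 in the others. How the aligner placed reads that match several genes is not given in the sources used here, and its part in these values was not tested.

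Many pseudogene peaks aligned into a peak of the coding gene. Of 645 peaks that could be carried onto the closest coding transcript, 369 (57.2%, 53.4 to 61.0) overlapped a peak of that gene by at least 1 nt, and 369 of 509 (72.5%, 68.5 to 76.2) did where that gene has a peak at all. The latter share was 74.5% for peaks that cover at least 90% of the pseudogene and 69.6% for narrower ones. A peak over the whole pseudogene meets any coding peak in the aligned part by its extent alone, and no background share was computed, so these shares do not show a shared position. With the parent named by symbol, 48 of 71 peaks aligned into a parent peak (67.6%, 56.1 to 77.3). The centre of the aligned part lay in the coding sequence in 620 of 645 cases (96.1%), and that of the narrower peaks lay within 200 nt of the end of the coding sequence in 80 of 241 cases (33.2%).

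Over these 369 pairs, the pseudogene peak had a median fold of 11.4 (interquartile range 5.69 to 24.7) and the coding peak 1.99 (1.55 to 2.76). The pseudogene had the higher fold in 335 pairs (90.8%), the lower in 31 and the same in 3. The p-values were opposite, with a median log10 p of -3.15 for the pseudogene and -56.7 for the coding peak, which was the lower in 315 pairs (85.4%). Up to 90% identity the pseudogene had the higher fold in 59 of 59 pairs, with medians of 22.8 and 1.99, and above 99% in 58 of 74 pairs, with medians of 4.43 and 2.19. The pairs held 347 pseudogenes but only 204 coding peaks of 181 genes, so many share a coding peak, and Spearman's correlation between both folds was 0.03.

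**Figure D4:**
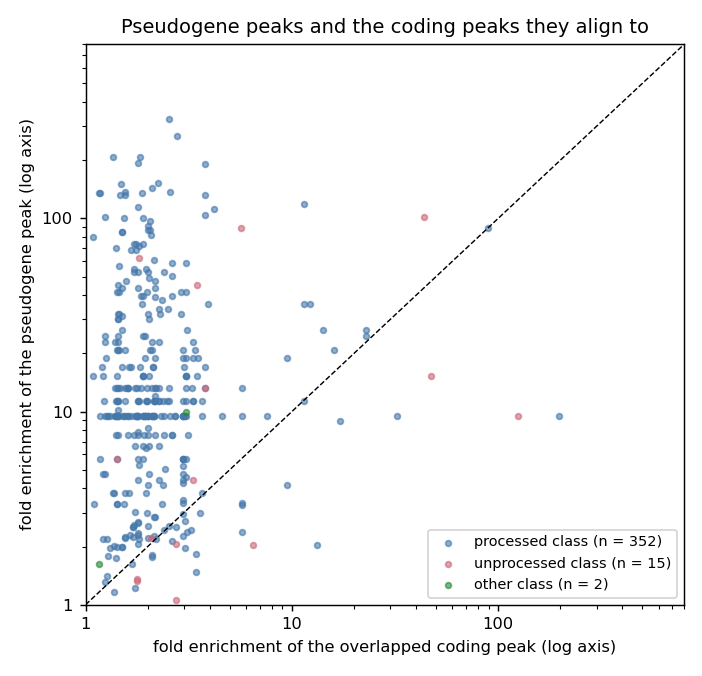
Fold enrichment of a pseudogene peak against that of the coding peak it aligns into, on log axes, for 369 pairs coloured by class; the dashed line marks equal folds. In 335 pairs the point lies above the line, and most coding folds lie between 1 and 4 while the pseudogene folds reach 326.

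The 6 pairs with the lowest pseudogene log10 p serve as examples. They were picked by the pseudogene side, and their pseudogene folds far exceed the median of 11.4 over all 369 pairs. Gm19085 had a fold of 267 and the overlapped Noc3l peak 2.78. Gm13423 had 133 and Npm1 1.55, and Gm12477 had 207 and Rpl18 1.36. These pseudogene peaks cover whole genes at 80.3 to 89.8% identity to the coding transcript. Gm12098 had 150 and Rbm8a 1.49, Rpl28-ps2 had 326 and Rpl28 2.54, and Rps6-ps3, at 98.5% identity, had 144 and Rps6 2.09. The pseudogenes with a lost DRACH site printed above had folds of 144 to 326, and their peaks hold other DRACH sites.

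DRACH sites were slightly denser in pseudogene peaks than in the list as a whole. The exonic parts held 22.4 sites per kb (22.2 in the processed, 23.3 in the unprocessed class), against 20.1 in all peaks and 19.8 in protein-coding peaks. The 4-letter core GGAC occurred 3.57 times per kb in pseudogene peaks and 3.59 in all peaks. No DRACH site was present in 18 of 772 pseudogene peaks with an exonic part (2.33%), against 7.34% of all peaks, whose exonic parts were shorter (median 237 nt against 442.5 nt). Sites in the aligned parts were counted once for each pseudogene peak, so a coding site recurs for each copy and each overlapping peak. Of 8111 such counts of DRACH sites of the coding transcripts, 6736 were kept in the pseudogene (83.0%) and 1375 were lost. Another 1641 were found only in the pseudogene. Sites inside a peak of the coding gene were kept in 1375 of 1592 cases (86.4%, 84.6 to 88.0), and those outside in 5361 of 6519 (82.2%, 81.3 to 83.1). The outside group includes all sites of coding genes with no peak. Pseudogene peaks of those genes had a median identity of 93.1%, against 96.5% where the coding gene had a peak. Both intervals treat repeats of a site as separate sites, so the gap does not show that sites inside peaks were better kept.

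The 609 matched pseudogenes came from 371 coding genes, of which 90 were closest to at least 2 pseudogenes with a peak and 6 to at least 10. The largest family was that of Hmgb1, a chromatin protein that also acts as an alarm signal outside cells. Its 20 pseudogenes had folds of 1.90 to 135 with a median of 13.3, and 19 of them reached 5. Hmgb1 itself had 4 peaks of fold 1.17 to 1.57. The lowest member, Gm5518 at 1.90, had 99.2% identity and a peak covering 13.8% of the gene, whereas Gm29516, at 135, had 87.8% identity and a peak over its whole length. Gm21596 went against this order, with 99.9% identity, full coverage and a fold of 13.3.

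The 15 pseudogenes of Gapdh, the glycolytic enzyme, ranged from 1.31 (Gm5559, 99.9% identity) to 41.7 (Gm10284, 99.3%) with a median of 9.48, and Gapdh had 3 peaks of fold 1.24 to 15.2. Both the highest and the lowest member were close copies, and so the family did not follow the order by identity. Gm7336, with 99.9% identity, had the lowest log10 p of the family at -55.2 with a fold of 3.45.

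Nsa2 stood apart among the large families. Its 11 pseudogenes all had a fold of at least 5, with a median of 165, and all 11 peaks covered 100% of the pseudogene, while no peak was listed for Nsa2. In order the folds were 738 for Gm3953, 277 for Gm9722, 264 for Gm9443, 237 for Gm8454, 192 for Gm18996 and 165 for Gm7599. The other 5 were 116 for Gm6808, 72.1 for Gm8458, 20.9 for Gm15596, 15.2 for Gm12599 and 9.48 for Gm13333. Their identity to Nsa2 lay between 90.4 and 97.7%. Without this family the share of pseudogene peaks with a fold of at least 5 was 78.5%.

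Rpl17, a protein of the large ribosomal subunit, also had no peak of its own, and its 7 pseudogenes fell into separate ranges. Gm15002 (197), Gm12607 (51.2), Gm5277 (37.9) and Rpl17-ps2 (32.2) had 82.4 to 94.8% identity to Rpl17. Rpl17-ps5 (2.51), Rpl17-ps10 (1.70) and Rpl17-ps3 (1.47) had 99.3 to 99.6%. The highest fold of the closer copies, 2.51, was thus under the lowest of the more diverged ones, 32.2.

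Rpl7a pseudogenes ranged from 2.28 to 193 over 17 peaks, Rpl21 pseudogenes from 1.75 to 47.4 over 12 and Rps2 pseudogenes from 1.98 to 133 over 9.

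**Figure D5:**
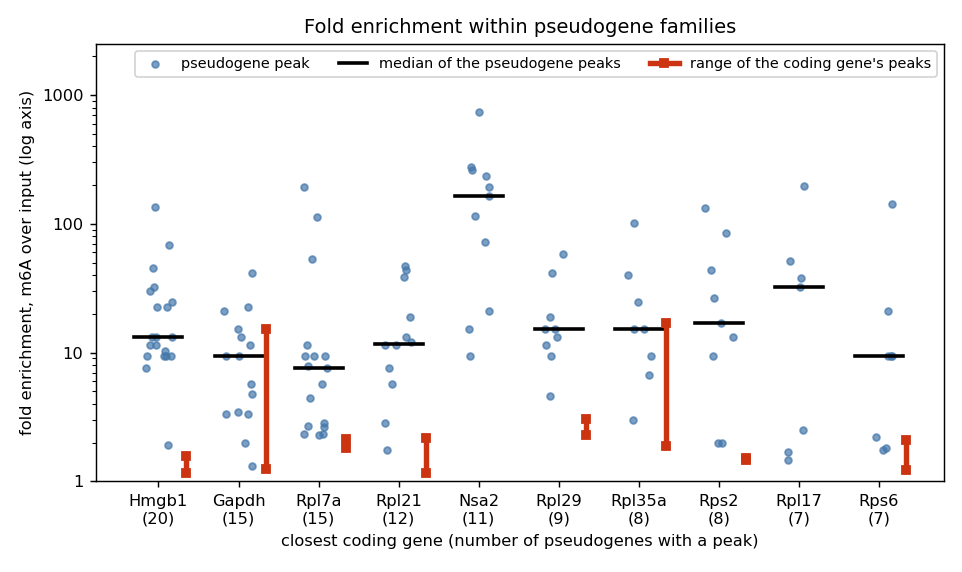
Fold enrichment (log axis) of the pseudogene peaks closest to each of 10 coding genes with at least 7 such pseudogenes, whose numbers stand in parentheses; black lines are medians and red bars the range of the coding gene's own peaks. Nsa2 and Rpl17 have no red bar because no peak was listed for them, and the Nsa2 pseudogenes have the highest median, 165.

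By symbol, 14 parent names were shared by at least 2 pseudogenes with a peak. Rps6 named 4, with folds of 1.81 to 144, against 1.22 and 2.09 for the peaks of Rps6. Rpl17 named 4 (1.47 to 32.2), Rpl7a 3 (7.59 to 53.1), Rps13 3 (1.97 to 9.48), Rps15a 3 (5.69 to 9.48) and Rps2 3 (1.98 to 133). Rpl19 named 2 (2.36 and 2.98) and Rpl28 also 2 (26.6 and 326). Outside the ribosome, the pair of Hspe1, the mitochondrial chaperonin partner of Hspd1, had 101 and 104, where Hspe1 had peaks of 1.5 and 1.81. By sequence, however, both were closest to AC117239.2 (91.3 and 94.6% identity), for which no peak was listed. Atp6v0c, a subunit of the vacuolar proton pump, named a pair of 10.4 and 72.1, Gtpbp4, a ribosome assembly GTPase, a pair of 13.3 and 17.1, and Hnrnpa1l2 a pair of 74.0 and 102. The peak of Hnrnpa1l2-ps2 spanned 925397 nt of genome with 963 nt of exon, the longest span among pseudogenes. Vmn2r, a name shared by vomeronasal receptors, stood for 4 pseudogenes with folds of 13.3 to 66.4.

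Ribosomal protein genes were the source of more pseudogene peaks than any other list, with 214 peaks on 195 pseudogenes, all processed. Their median fold was 9.48 and 145 had a fold of at least 5 (67.8%, 61.2 to 73.7), below the 78.8% of all pseudogene peaks, at a median identity of 97.9%. The 3 highest were Rpl28-ps2 at 326, Gm2961, closest to Rps3a1, at 212 and Gm12477 at 207. The closest coding gene had a peak for 203 of the 214.

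Other housekeeping lists were smaller and also came from processed pseudogenes, save 1 ubiquitin peak. Chromatin and nuclear proteins gave 36 peaks (median 13.3, 30 with a fold of at least 5), led by Gm29516 and Gm13423. Translation factors gave 20 (median 10.44, 14), led by Eif3s6-ps4 at 209, and RNA-binding and splicing proteins 20 (median 16.15, 18), led by Gm12098. Glycolysis gave 19 (median 9.48, 13), 15 of them copies of Gapdh, and chaperones 14 (median 19.95, 9). Ubiquitin and proteasome genes gave 12 (median 12.35, 11), zinc finger proteins 11 from either class (median 9.48, 10), the cytoskeleton 7 (median 11.4, 4) and oxidative phosphorylation 6 (median 19.0, 6), led by Gm47845 at 152, closest to Sdhaf3. Another 392 peaks were in no list, with a median of 15.2 and 334 at 5 or more.

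Pseudogenes of the chemosensory receptor list lay at the high end. For 9 of its 18 peaks the symbol names a parent. The others entered by their own symbol, as Olfr471 did, or by their closest coding gene alone. All 18 of their peaks had a fold of at least 5, with a median of 30.35, all 18 covered at least 90% of the pseudogene, and no closest coding gene in this list had a peak. Olfr471 led with 529, followed by Gm47678 at 275 and Gm43960, closest to Vmn2r79, at 159. The aligned parts of Gm47678 and Gm43960 are centred in the 3′ untranslated region of the receptor transcript. So are those of Gm48841 (fold 37.9), Gm48592 (37.9) and Gm48541 (22.8), which are in this list too. Their match therefore does not show that they are copies of the receptor coding sequence. Olfactory and vomeronasal receptors serve smell in sensory neurons and are not known as NK cell genes, and no expression level was available for them here.

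Pseudogenes of the immune gene list lay at the low end of the pseudogene lists, near the values of all peaks. Their 12 peaks on 10 genes had a median of 2.06, against 2.66 for all distinct peaks. A fold of 5 was reached by 4 (33.3%, 13.8 to 60.9), against 34.6% of all peaks, and 2 covered at least 90% of the gene. Klra13-ps and Klra14-ps, copies of Ly49 receptor genes that NK cells use to sense MHC class I, had peaks of 2.06 and 1.06 and of 1.36 and 1.32. The peak of Klra13-ps at 2.06 had a log10 p of -45.3. Among MHC copies, H2-K2 had 2.23 with a log10 p of -18.0, H2-T-ps 2.05, H2-Q5 1.62 and H2-T10 1.25. The 4 high members were H2-Ea-ps at 41.7, Gm32220, a copy of the B cell receptor gene Cd79a, at 39.8, Gbp11, a guanylate-binding protein pseudogene, at 32.2 and Ly6e-ps1 at 15.2. The peaks with a fold under 5 covered 4.42 to 28.6% of their genes, and so did that of Gbp11, at 16.7%, with its fold of 32.2. Gene names defined this list, and it leaves out Gm8995, closest to Gvin1, with folds of 47.1, 1.43, 1.27 and 1.21. Also outside it are Slfn10-ps (3.79 and 5.69), Trim30e-ps1 (11.4), Naip3-ps1 (5.69), Btnl5-ps (5.69) and Defa-ps5 (15.2). The low values therefore hold for the list as drawn.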

How the data were processed

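MeRIP-seq of splenic NK cells comprised 2 m6A immunoprecipitates and 2 inputs. Per the study's methods, reads were trimmed and aligned with HISAT2, and the authors called peaks with exomePeak and annotated them with ChIPseeker, and per the labels the build was GRCm38. How replicates were combined is not given in the sources used here. The deposited fold enrichment is a ratio computed by the authors. The deposited significance is a score, the log10 p of peak calling, with -1.30 as its weakest value. The list has 0 columns per sample, so depth and replicate error are unknown and no test was run.

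Of 20751 entries 24 were exact repeats and were dropped, and 21 peaks whose gene identifier was not annotated could not be typed. Of the genes that the naming rule covers, 1 coding gene and its copies are not reported here. Gene types, exons and transcripts came from GENCODE M21, and windows from the GRCm38 genome. Pseudogene transcripts were aligned to protein-coding transcripts with blastn 2.17.0 (e-value limit 1e-10, identity of at least 80% over at least 50% of the pseudogene, best bit score), a step tested on simulated data. The simulated sequences were pieces of the same coding transcripts with substituted bases and no gaps. That test therefore does not cover copies with insertions, deletions or missing parts. Peaks were carried onto the coding transcript through the alignment. Scripts used Python 3.11.15, pandas 2.3.3, scipy 1.17.1 and pysam 0.24.0. Wilson intervals cover counting error over peaks or genes only and say nothing of read depth.

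Named genes are the 10 highest folds, the 5 lowest log10 p, parent symbols shared by at least 2 pseudogenes, the top 3 of each class and list, the 3 with most peaks, up to 6 peaks aligned into a coding peak and up to 5 on exons of another gene. Other genes, the identity groups and the families described were chosen after their values were seen. Members and lists were chosen with earlier results of these data known. Alternatives changed the thresholds, the peaks kept, the overlap rule, the parent assignment and the motif.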

Additional observations from a re-analysis of the deposited data

How the results depend on the processing

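Of 45 alternative values for 11 results, 25 stayed within the interval of the main value, or within 1.5 times it for a count. With only peaks of log10 p under -3, pseudogene peaks numbered 420, a fold of at least 5 was reached by 82.6%, the processed and unprocessed medians rose to 36.0 and 37.9, their log2 difference reversed to -0.074, the covered share became 71.4%, and the log2 difference between identity above 99% and up to 90%, -2.33, became -3.46. A fold of at least 2 was reached by 94.3% and of at least 10 by 57.1%. When each gene was held to its strongest peak, the share at 5 was 82.9% and the covered share 66.1%, and the difference between classes was 0, as it was without transcribed forms. At 50% of the gene the covered share was 69.5%. Overlap with exons of another gene was 6.04% on either strand, 0.771% by at least 50% of the exonic part and 4.76% by genomic span. Counting only parent peaks with a fold of at least 5, 18.6% of parents had a peak. GGAC occurred 3.57 times per kb, and DRACH 21.2 times over genomic spans. Of the alternatives chosen after seeing the data, the identity difference was -1.19 for peaks covering at least 90% of the gene and -1.51 for narrower ones, and stayed negative in all 7. The causes were not tested. No paired analysis was possible because the list gives no value per sample, and for the same reason no replicate could be left out. The peak list gives no read counts, so what depth limits could not be measured.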
